A study of Mus musculus with 11 samples.

Results

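Itgal and Itga1, the genes of 2 integrin alpha chains used by lymphocytes for adhesion and tissue homing, were followed in dendritic cells of the mouse spleen. They were picked by symbol and are 2 of the 417 gene rows in the deposited expression table. The libraries came from C57BL/6J mice aged 12 to 16 weeks that carried 1 copy of a CRISPR-made uromodulin allele with phenylalanine in place of cysteine (UMOD C105F/+, 5 libraries numbered 2 to 6; the labels also write C106F) or wild type littermates (6 libraries numbered 1 to 6). Uromodulin is a protein of the kidney tubule that also circulates in blood, and the series asks how the mutation bears on dendritic cell migration, tolerance and kidney repair. Spleens were digested with collagenase and dendritic cells enriched by magnetic removal of other cells, which can leave some lymphocytes behind. The labels give no sex or injury, and they do not state that each library is a separate mouse, so p-values measure the spread between libraries.

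Integrins are pairs of an alpha and a beta chain that span the cell membrane and hold cells to other cells or to matrix. The αL chain encoded by Itgal pairs with β2 to form LFA-1, which binds ICAM proteins and lets lymphocytes stop on endothelium and hold on to antigen-presenting cells; dendritic cells carry it too. The α1 chain encoded by Itga1 pairs with β1 to form a receptor for collagen and laminin, known from T cells and NK cells that stay in tissues and from endothelium, smooth muscle and fibroblasts.

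Itgal (Entrez 16408) lies on the forward strand of chromosome 7, from 127296139 to 127335137 in GRCm38. Itga1 (Entrez 109700) lies on the reverse strand of chromosome 13, from 114958079 to 115101964. In GENCODE M21 no other gene overlapped Itgal. Itga1 overlapped 3 others, of which Pelo and the antisense gene Gm10734 shared 0 exon bases with it, whereas Gm49395, on the same strand, shared 685. Reads from these shared bases may have been split between the genes. The RefSeq start region of Itga1 is printed here because its promoter is the DNA next to the gene whose level is described, with 250 bases before the start and 50 after it, chr13:115101915-115102214 on the reverse strand (GRCm38.p6). Capitals mark matches, on either strand, to the full ETS string AGGAAG and the SP/KLF core GGCGGG. Shorter or variant ETS sites were not searched for and are not marked.

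Itga1 start region: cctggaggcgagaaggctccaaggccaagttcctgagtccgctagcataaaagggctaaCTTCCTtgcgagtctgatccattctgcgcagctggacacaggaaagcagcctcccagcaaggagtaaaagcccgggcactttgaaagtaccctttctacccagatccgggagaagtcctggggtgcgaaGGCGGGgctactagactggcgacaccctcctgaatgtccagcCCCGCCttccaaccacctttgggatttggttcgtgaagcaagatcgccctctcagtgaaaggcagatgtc

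The ETS string AGGAAG occurred 1 time, with its first base at position -191 from the start, and the SP/KLF core 2 times, at -62 and -20. None of the 3 matches overlapped another. The same ETS string was present in 35.1% and the SP/KLF core in 35.6% of 32544 start regions of the same length. The RUNX core TGTGGT, present in 16.7% of the regions, and the AP-1 site TGANTCA, present in 7.79%, were not among the letters of this window.

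The table holds genes that differed between the genotypes, with absolute folds from 2.00 upwards and unadjusted p-values up to 0.0493. Both genes were thus selected for the difference between genotypes given below, whose tests are not independent evidence. Total reads per library are not in the table. Size factors recovered from the deposited means give relative depth, lowest in wild type 1 (0.615) and highest in C105F/+ 2 (1.98). Dividing counts by them gave scaled counts. None of the 8 pan-dendritic or 11 cDC2 markers had a row, so the cell type named in the labels could not be checked from them.

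Itgal was an abundant transcript in every library and was about 2 times higher in C105F/+. Its scaled counts in C105F/+ 2, 3, 4, 5 and 6 were 19582, 8046, 14459, 23152 and 21970. In wild type 1 to 6 they were 7573, 10907, 8392, 5051, 9393 and 7924. Libraries 2, 4, 5 and 6 of C105F/+ exceeded the whole wild type group, while C105F/+ 3 lay inside the wild type range, so the groups overlapped. The means were 17442 ± 6222 (SD, n = 5) and 8207 ± 1958 (SD, n = 6), a 2.13-fold difference (log2 1.09 ± 0.37 SE; edgeR quasi-likelihood adjusted p = 0.0294 and exact two-sided permutation p = 0.013). In the authors' deposited table the log2 fold change was 1.09 with an adjusted p of 0.0111. The 2 adjusted p-values cover different sets of rows and are not comparable. That of edgeR covers only the 321 preselected rows tested, 278 of them at an unadjusted edgeR p under 0.05, so it adjusts little. That of the authors reaches 0.239 for S1pr5, whose unadjusted p by the authors was 0.0428. Read counts of Itgal were 4656 or more in each library, so counting error was small beside the spread between libraries.

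Itga1 was a rare transcript and was also higher in C105F/+. It had 183, 125, 284, 342 and 277 scaled counts in C105F/+ 2 to 6. In wild type 1 to 6 it had 91.1, 68.2, 86.3, 45.0, 185 and 123. Libraries 4, 5 and 6 of C105F/+ exceeded every wild type library, whereas C105F/+ 2 and 3 fell below wild type 5. The means of 242 ± 86.7 (SD, n = 5) and 99.7 ± 48.9 (SD, n = 6) differed 2.43-fold (log2 1.28 ± 0.43 SE; edgeR adjusted p = 0.0294 and exact two-sided permutation p = 0.0108). The authors' deposited table gives a log2 fold change of 1.28 with an adjusted p of 0.0338, again adjusted over a different set of rows than that of edgeR. The lowest read count was 43, in wild type 4, where the exact 95% Poisson interval of the scaled count ran from 32.6 to 60.7; in wild type 5 it ran from 161 to 211. These intervals cover counting error only and do not meet, so the wild type libraries differed among themselves by more than counting error.

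**Figure D1:**
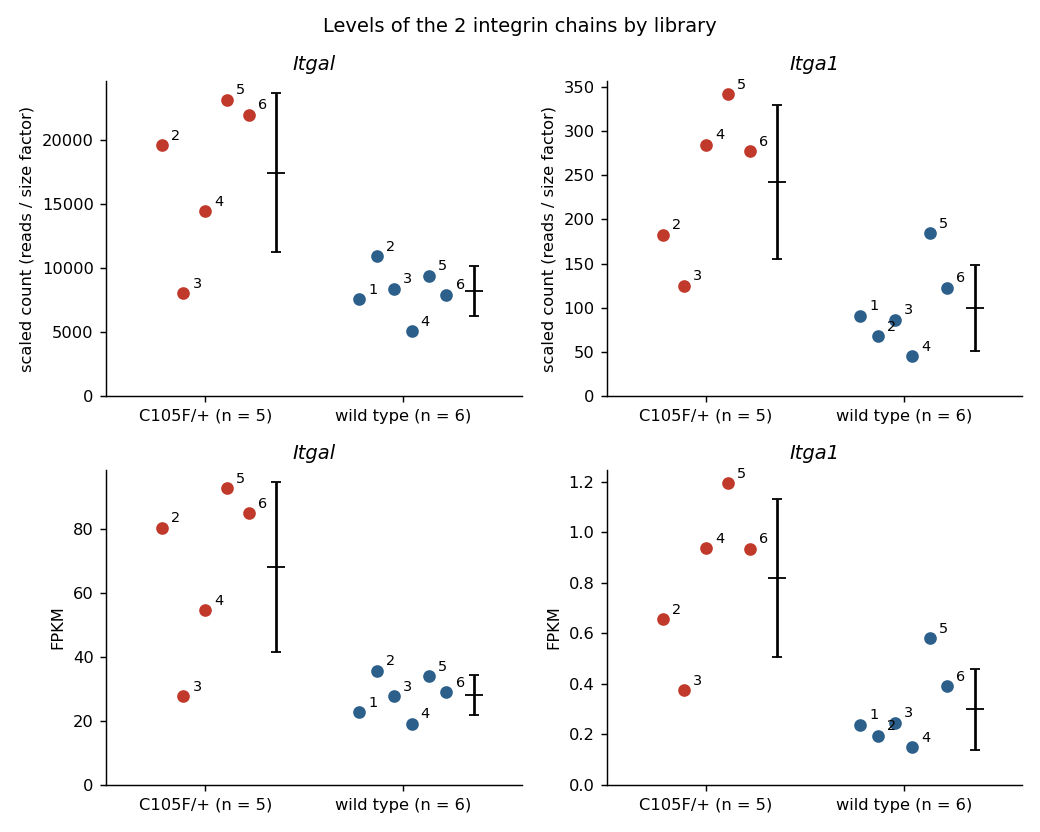
Scaled counts (reads divided by the size factor, upper row) and FPKM (lower row) of Itgal and Itga1 in each library, with points numbered by replicate and bars showing the mean ± SD of 5 C105F/+ and 6 wild type libraries. C105F/+ 3 sits among the wild type libraries for both genes, and wild type 4 is the lowest library for both.

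FPKM values, which take transcript length into account, allow the 2 genes to be compared with each other. Itgal had 68.1 ± 26.6 FPKM in C105F/+ (SD, n = 5) and 28.0 ± 6.36 in wild type (SD, n = 6). Itga1 had 0.819 ± 0.313 and 0.300 ± 0.160 FPKM in the same groups. By FPKM, Itgal ranked between 9 and 27 among the 417 rows of a library and Itga1 between 162 and 276. The ratio of Itgal to Itga1 in FPKM ran from 58.3 in C105F/+ 4 and wild type 5 to 184 in wild type 2. The group folds of FPKM were 2.43 for Itgal and 2.73 for Itga1. On this scale 4 of 5 C105F/+ libraries exceeded the whole wild type group for each gene.

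The levels of Itgal fell in the order C105F/+ 5, 6, 2 and 4, then wild type 2, 5 and 3, then C105F/+ 3, then wild type 6, 1 and 4 by scaled count. The order of Itga1 differed, with wild type 5 above C105F/+ 2, and C105F/+ 3 just above wild type 6 (125 and 123, with overlapping Poisson intervals). For Itgal, C105F/+ 3 likewise overlapped its neighbours wild type 3 and 6 in counting error. The group difference of Itga1 relative to Itgal in the same library, which does not depend on scaling between libraries, was 0.29 on the log2 scale (-6.16 ± 0.40 in C105F/+, n = 5, against -6.45 ± 0.58 in wild type, n = 6; exact permutation p = 0.372, adjusted p = 0.448 over 3 within-library comparisons). A difference between the genes in their response to genotype was not detected on this scale. On log2(FPKM + 1) the sign turned and the difference passed without adjustment (-0.69, exact permutation p = 0.0303); that pseudocount exceeds most Itga1 values, and with a pseudocount of 0.01, chosen after seeing the data, the difference was 0.27. Deviations of the 2 genes from their group means had a Pearson r of 0.63 over the 11 libraries, which share depth and scaling between the genes; this placed Itga1 at rank 72 of 313 rows in likeness to Itgal.

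Neither gene stood out from the table by the size of its fold. Among the 321 rows tested with edgeR the median log2 fold change was 1.12, and 171 rows had a larger one than Itgal and 132 a larger one than Itga1. Of the rows tested, edgeR called 52.6% higher in C105F/+ and 21.8% lower (adjusted p under 0.05). The authors' deposited table gives an adjusted p for 295 rows, and by it 29.8% of these were called higher. The shares by edgeR and by the authors rest on adjustments over different sets of rows, so they are not comparable with each other. The groups did not overlap for 10.1% of rows in the higher direction, and Itgal and Itga1 were not among them. The call of both genes was lost without C105F/+ 2 (log2 1.04 for Itgal and 1.36 for Itga1, edgeR adjusted p = 0.0686 and 0.0617), without C105F/+ 5 (0.96 and 1.12, adjusted p = 0.0735 and 0.0741) and without C105F/+ 6 (0.99 and 1.23, adjusted p = 0.0685 and 0.0662), and with TMM scaling on the selected rows, which lowered the median log2 fold change of all rows from 1.12 to 0.43 (0.35 and 0.60, adjusted p = 0.334 and 0.249).

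Other genes of adhesion and leukocyte trafficking were sparse in the table. Of 66 listed genes 8 had a row, Itgal and Itga1 included. The β2 and β1 partners of the 2 chains were listed but had no row, so their levels could not be examined. All 8 genes with a row were higher in C105F/+ on average, as were 253 of the 417 rows. The edgeR test called 7 of 8 higher (adjusted p under 0.05), against 52.6% of all rows tested, with a median log2 fold change of 1.36 against 1.12 over all rows tested; the count fell to 0 without C105F/+ 2 and to 1 without C105F/+ 5 or 6, and was 0 with TMM scaling on the selected rows. Over the whole table, rows called higher fell from 169 to 8, 10 and 13 without C105F/+ 2, 5 and 6 and to 13 with TMM. By the adjusted p that the authors deposited, 4 of the 8 adhesion genes passed, against 29.8% of all rows with such a p called higher.

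Among the integrins, Itgae, the αE chain that binds E-cadherin and marks cross-presenting dendritic cells and some T cells, stood 3.74-fold higher (2355 ± 1046 against 630 ± 311 scaled counts, edgeR adjusted p = 0.0226). Itga8, the α8 chain, a receptor chain for matrix proteins in mesenchymal cells, had 677 ± 173 against 277 ± 142, 2.44-fold higher (edgeR adjusted p = 0.0462). It had 14.7 scaled counts in the lowest wild type library. By FPKM the 4 integrin alpha chains ordered as Itgal, Itgae (12.6 in C105F/+ and 2.91 in wild type), Itga8 (2.35 and 0.842) and Itga1 (0.819 and 0.300) in both groups.

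Genes of cell entry and exit followed. Chst1, a sulfotransferase that can modify the glycans bound by homing receptors, was 3.35-fold higher (386 ± 135 against 115 ± 46.1, edgeR adjusted p = 0.0183). All 5 of 5 C105F/+ libraries lay above every wild type library for Chst1, as they did for 10.1% of the 417 rows. Ccr10, a chemokine receptor of plasma cells, differed 6.11-fold (edgeR adjusted p = 0.0321; exact two-sided permutation p = 0.312), and it had 0 counts in C105F/+ 3. Cdh5, the cadherin of endothelial junctions, was 2.71-fold higher (edgeR adjusted p = 0.0329). S1pr5, a sphingosine-1-phosphate receptor that guides NK cells and patrolling monocytes out of tissues, did not pass (660 ± 382 against 281 ± 246, edgeR adjusted p = 0.0616).

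**Figure D2:**
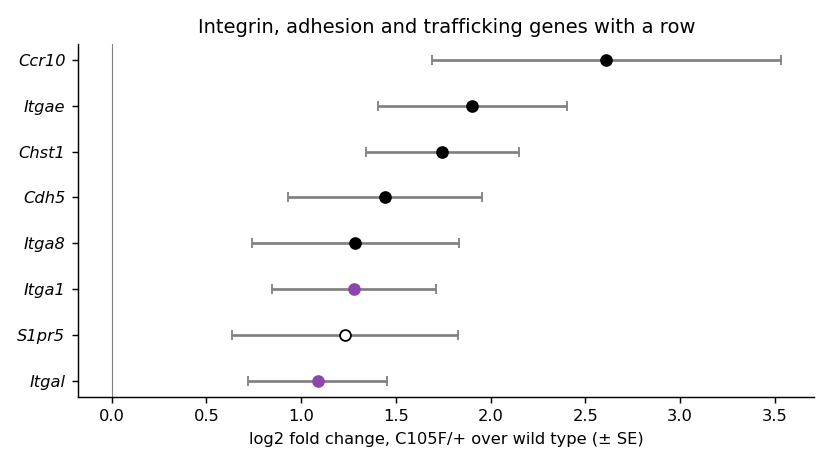
Log2 fold change of C105F/+ over wild type (± SE, edgeR, 5 against 6 libraries) for the 8 genes of the adhesion and trafficking list with a row; purple points are Itgal and Itga1, and the open point is S1pr5, whose adjusted p was 0.0616. Itgal has the smallest fold change and the smallest SE of the 8.

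Lymphocyte transcripts with a row were also higher on average in C105F/+. Of 24 T cell, 20 B cell, 17 plasma cell and 16 NK cell markers listed, 4, 8, 8 and 5 had a row. Markers without a row could not be examined. All of the rows had a higher mean in C105F/+, though Ncr1, an NK cell row, had too few counts to be tested. By edgeR 4, 8, 8 and 3 of the rows passed, against 52.6% of all rows tested called higher. These rows too had been selected for this difference. Of the T cell rows, the costimulatory receptor gene Cd28 averaged 337 ± 159 scaled counts in C105F/+ and 79.9 ± 25.8 in wild type, and the inhibitory receptor gene Ctla4 219 ± 149 and 49.3 ± 22.8. Cd2, an adhesion molecule of T cells, was 4.13-fold higher. Cd79a, a signalling chain of the B cell receptor, averaged 2282 ± 1668 and 611 ± 709, and the B cell genes Pou2af1 and Ms4a1 were 4.57-fold and 2.32-fold higher. Jchain, whose product links antibody units in plasma cells, averaged 134484 ± 76608 and 18081 ± 3423, with Txndc5 and Mzb1, chaperones of the secretory pathway, 2.45-fold and 2.99-fold higher. Il2rb, the interleukin receptor chain of NK cells and some T cells, averaged 236 ± 201 and 65.7 ± 82.0, Eomes, a transcription factor of NK cells, was 4.72-fold higher, and Prf1, which encodes perforin, did not pass (52.9 ± 51.6 against 11.3 ± 9.48). By the exact two-sided permutation test on single rows, not adjusted, 14 of the 25 lymphocyte rows passed. Of those named, Cd2, Cd79a, Pou2af1, Ms4a1, Mzb1, Il2rb and Prf1 did not (exact p = 0.0887, 0.0931, 0.0541, 0.0606, 0.0628, 0.0974 and 0.357). The share of all rows passing the exact test was not computed, so the 14 have no background to be set against. The 23 lymphocyte rows called by edgeR fell to 2 without C105F/+ 2, to 3 without C105F/+ 5, to 5 without C105F/+ 6 and to 4 with TMM scaling on the selected rows. Rows called higher in the whole table fell from 169 to 8, 10, 13 and 13 in the same settings. In bulk RNA, more cells of a type and more RNA per cell cannot be told apart.

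The summed level of each marker list varied more among C105F/+ libraries than Itgal did. The T cell rows summed to 250 to 1351 scaled counts in C105F/+ and 155 to 227 in wild type, and the B cell rows to 2112 to 13555 and 1710 to 5721. The plasma cell rows summed to 19139 to 217195 in C105F/+ and 21297 to 32223 in wild type, and the NK cell rows to 55.0 to 973 and 53.8 to 281. The T cell defining genes Cd3e, Cd3d and Cd3g were on the T cell list but had no row, so their levels could not be examined. The part of lymphocytes in the level of either integrin gene was not tested.

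Markers of myeloid and other cells had few rows. These were 2 of 14 for monocytes and macrophages, 4 of 10 for neutrophils and 3 of 10 for erythroid cells and platelets. Eosinophils and mast cells had 4 of 10, endothelium and stroma 2 of 14, cDC1 1 of 12 and plasmacytoid cells 1 of 10. The edgeR test called both monocyte rows (Ace and F13a1), all 4 neutrophil rows, among them Csf3r, G0s2 and Retnlg, and 2 of 3 erythroid and platelet rows (Alas2 and Sptb, but not Ppbp) higher. Of the eosinophil and mast cell rows Prg2, Ear1 and Ear6 were called higher and Mcpt1 lower. The call of Mcpt1 was lost without any 1 of the C105F/+ libraries and without wild type 1, 2 or 3. It was also lost with no filter on low counts, with the depth behind the FPKM values and with the replicate block. The single cDC1 row, Itgae, and the single plasmacytoid row, Pacsin1, were called higher as well. With the 2 endothelial rows, Cdh5 and Flt1, 15 of 17 rows of these lists were called higher and 1 lower, against 52.6% higher and 21.8% lower over all rows tested. The 15 fell to 2 without C105F/+ 2, 5 or 6, to 9 without wild type 3 or 6 and to 3 with TMM scaling on the selected rows. Rows called higher in the whole table fell from 169 to 8, 10 and 13 without C105F/+ 2, 5 and 6. They fell to 116 and 119 without wild type 3 and 6 and to 13 with TMM. Of the 17 rows, 9 were higher with an exact permutation p under 0.05, not adjusted, a share not computed for all rows. The part of these cell types in the level of Itgal and Itga1 was not tested.

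To relate each gene to the lymphocyte transcripts of its own library, a lymphocyte reference was formed as the mean of log2(scaled count + 1) over the rows of each of the 4 lists, averaged over the lists. Each list weighed the same, and some rows lay near 0, where the pseudocount matters. Ncr1 had a wild type mean of 0.30, Prf1 reached 0 in both groups and Ccr10 was 0 in C105F/+ 3. With a mean of 38.6 in C105F/+ and 17.7 over all libraries, Ncr1 passed the count filter only through C105F/+. The group differences of the NK cell list and of the reference are thus in part set by that filter. The reference was 9.12, 5.84, 7.24, 8.76 and 8.70 in C105F/+ 2 to 6 and 5.75, 6.17, 6.18, 6.59, 6.22 and 5.93 in wild type 1 to 6. C105F/+ 3 thus had the second lowest reference of the 11 libraries, in addition to an Itgal level inside the wild type range. C105F/+ 4 was intermediate for the reference, and C105F/+ 2, 5 and 6 were high for both the reference and Itgal. The reference was 1.79 higher in C105F/+ (7.93 ± 1.37, n = 5, against 6.14 ± 0.29, n = 6; exact permutation p = 0.0152), which is more than the 1.03 by which Itgal and the 1.32 by which Itga1 differed on the same scale. Every row in the reference had been selected for a difference between genotypes and was higher. The rise of the reference, its p and its size beside the 2 genes are thus not independent evidence.

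**Figure D3:**
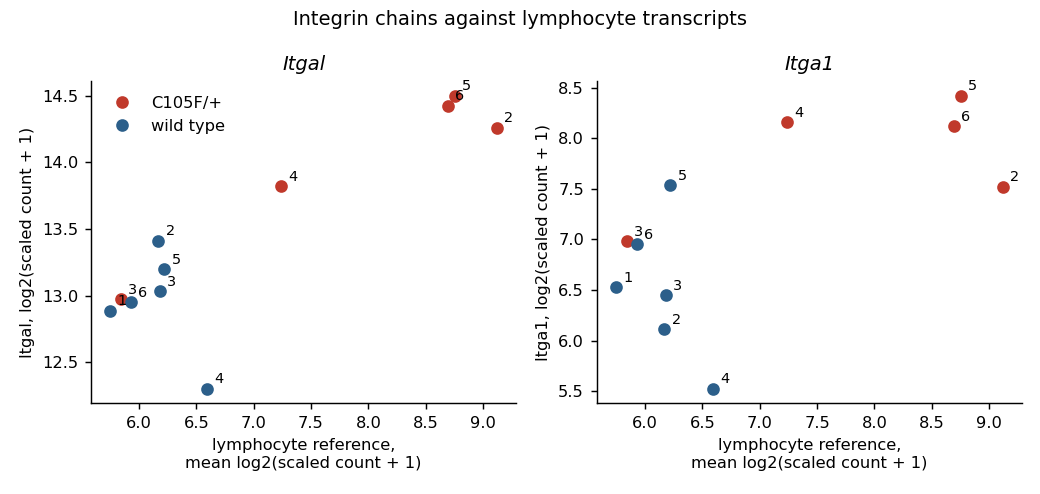
Level of Itgal and Itga1 against the lymphocyte reference, both as log2(scaled count + 1), with 1 point per library numbered by replicate. C105F/+ 2, 5 and 6 lie at the upper right for Itgal, C105F/+ 3 lies among the wild type libraries, and wild type 4 combines the highest wild type reference (6.59) with the lowest Itgal and Itga1.

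Relative to the reference, Itgal had a lower mean in C105F/+ on the scaled counts, a difference that did not pass. Its level minus the reference was 5.13, 7.13, 6.58, 5.74 and 5.73 in C105F/+ 2 to 6. In wild type 1 to 6 it was 7.14, 7.24, 6.85, 5.71, 6.98 and 7.02. Apart from wild type 4, the wild type libraries were close together, and C105F/+ 3 was among them. The difference was -0.76 (6.06 ± 0.79, n = 5, against 6.83 ± 0.56, n = 6; exact permutation p = 0.0909, adjusted p = 0.273 over 3 comparisons). Of the 11 fits that left out 1 library, 2 passed without adjustment. Without wild type 4 the difference was -0.98 (exact permutation p = 0.0317) and without C105F/+ 3 it was -1.03 (exact permutation p = 0.0333). The other fits ran from -0.89 without C105F/+ 4 (exact permutation p = 0.133) to -0.53 without C105F/+ 2 (exact permutation p = 0.219). Every row of the reference had been selected and was higher, so the sign is not independent of the selection. With pseudocounts of 0.5 and 5 on the scaled counts the difference was -0.81 and -0.60. On log2(FPKM + 1) the direction turned, to 0.16, and with an FPKM pseudocount of 0.01, chosen after seeing the data, it was -0.75.

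Relative to single lists, no difference of Itgal passed after adjustment over the 4 lists. Against the T cell list alone the difference was -0.88 (6.84 ± 0.50 against 7.73 ± 0.59, exact permutation p = 0.0303, adjusted p = 0.121). Against the B cell, plasma cell and NK cell lists it was -0.50, -0.60 and -1.06 (exact permutation p = 0.355, 0.113 and 0.13, adjusted p = 0.355, 0.173 and 0.173). Itgal therefore had a lower mean in C105F/+ relative to each of the 4 lists. Every list row had been selected as at least 2-fold different and was higher, so the sign of this difference is not independent of the selection. The NK cell list also includes Ncr1, which passed the count filter only through C105F/+.

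Relative to the reference Itga1 varied widely within both groups. Its level minus the reference was -1.60, 1.14, 0.92, -0.34 and -0.58 in C105F/+ 2 to 6. In wild type 1 to 6 it was 0.78, -0.06, 0.27, -1.07, 1.31 and 1.02. The groups overlapped over most of their range, and the difference of -0.47 did not pass (-0.09 ± 1.13, n = 5, against 0.38 ± 0.87, n = 6; exact permutation p = 0.448, adjusted p = 0.448). Against single lists it lay between -0.77 for NK cells and -0.21 for B cells, with exact permutation p from 0.307 to 0.755.

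**Figure D4:**
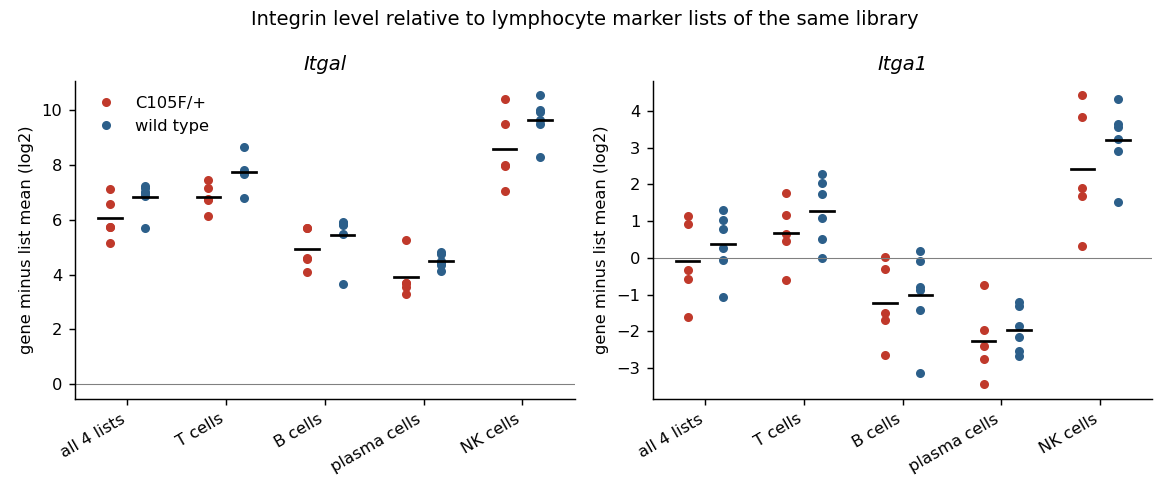
Log2 level of Itgal and Itga1 minus the mean of each lymphocyte marker list in the same library, with 1 point per library and a line at the group mean. C105F/+ means lie below wild type means in all 10 pairs of groups, and the points of the groups overlap in each pair.

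Within wild type, neither gene had a correlation with the lymphocyte reference past the threshold. Over the 6 wild type libraries Pearson's r between Itgal and the reference was -0.43 (exact permutation p = 0.394) and Spearman's rho was -0.03 (exact permutation p = 1). Without wild type 1 and 4, the libraries farthest from the median reference, r was 0.60 over 4 libraries, and without wild type 4 alone it was 0.74 (exact permutation p = 0.142), so the sign rested on wild type 4. For Itga1 r was -0.48 (exact permutation p = 0.321), rho -0.31 (exact permutation p = 0.564), and r was -0.04 without wild type 1 and 4.

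Single lists gave different signs for Itgal within wild type, with r from -0.83 for NK cells (exact permutation p = 0.0431) to 0.72 for plasma cells (exact permutation p = 0.0819). Of 10 such relations for the 2 genes none had an adjusted p under 0.05 (smallest 0.31). Without the 2 libraries farthest from the median, the r with the NK cell list was 0.30. Correlations with the list means and the reference were computed within wild type alone. In C105F/+ Itgal and the reference were both lowest in C105F/+ 3 and next lowest in C105F/+ 4.

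The rows most like each gene were sought by the Pearson correlation of deviations from the group mean of log2(scaled count + 1) over the 11 libraries, among 313 rows. For Itgal these were Cd300ld3 (r = 0.96), a myeloid receptor-like gene, Bmx (0.94), a tyrosine kinase, Cd300ld5 (0.94), a relative of Cd300ld3, Ccr10 (0.93) and Tnfrsf17 (0.92), the plasma cell receptor BCMA. The median r over the 313 rows was 0.29. Ccr10 had 0 counts in C105F/+ 3, so its deviation of -5.79 there depends on the pseudocount. Among lymphocyte rows the median r with Itgal was 0.79 for the 8 plasma cell rows, 0.66 for the 4 T cell rows, 0.54 for the 8 B cell rows and 0.45 for the 5 NK cell rows. Cd28 had 0.88 and Jchain 0.85, whereas Ebf1, a B cell transcription factor, had 0.09 and Bcl11b, a T cell transcription factor, 0.08. These r pool both groups. Within wild type alone Itgal had an r of -0.73 and -0.83 with the B cell and NK cell list means. With the T cell and plasma cell list means it was 0.12 and 0.72. Without the 2 libraries farthest from the median the B cell and NK cell values were 0.63 and 0.30. The libraries share depth and scaling across rows, and C105F/+ 3 and wild type 4 were low in the rows most like Itgal.

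For Itga1 the most alike rows were a different set of 5. They were Flt1 (r = 0.93), a VEGF receptor of endothelium, Rab11fip4 (0.92), an effector of recycling endosomes, Ahr (0.91), the receptor for aromatic ligands, Fzd1 (0.91), a Wnt receptor, and Cacna1e (0.91), a calcium channel subunit. Their wild type deviations were highest in wild type 5, as was that of Itga1. Flt1 had 640 ± 224 scaled counts in C105F/+ and 260 ± 145 in wild type. The other endothelial row, Cdh5, is given above; the 2 rows summed to 569 to 1690 scaled counts in C105F/+ and 128 to 793 in wild type, and their part in the Itga1 level was not tested. Lymphocyte rows were less alike Itga1, with a median r of 0.54 for plasma cell rows, 0.17 for T cell rows, 0.16 for NK cell rows and 0.08 for B cell rows, against 0.10 over all 313 rows. The difference from Itgal was not tested. These r pool both groups too. Within wild type alone the r of Itga1 with the plasma, T, NK and B cell list means was 0.45, -0.11, -0.46 and -0.76.

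**Figure D5:**
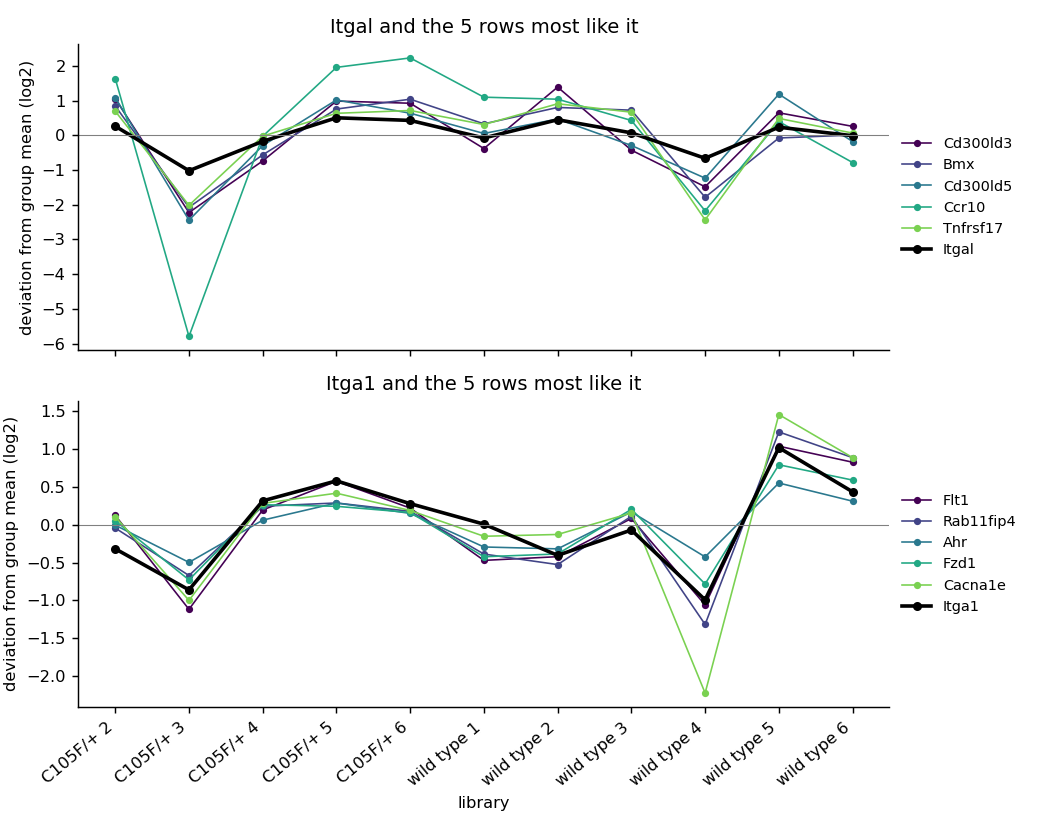
Deviation of log2(scaled count + 1) from the group mean in each library for Itgal and Itga1 (black) and the 5 rows most like each. Itgal and its 5 rows dip in C105F/+ 3 and wild type 4; Itga1 and its 5 rows dip in the same libraries and peak in wild type 5.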

How the data were processed

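Per the submitters' processing notes, the tools were Trimmomatic 0.38, FastQC 0.11.7, StringTie 2.1.3b, Bowtie2 2.3.4.1, HISAT2 2.1.0 and DESeq2, with mm10 as the build; their roles and any use of strand in counting are not given. The authors deposited read counts, FPKM and log2 normalized values for each library; how the last were transformed is not stated. They also deposited a signed fold, its standard error, a test score, a mean signal over libraries (counts divided by size factors), a p-value and an adjusted p-value, which 122 rows lack.

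Size factors were recovered by least squares from counts and deposited means (largest relative error 4.1e-15). The main test was edgeR's quasi-likelihood test (version 4.0.16 under R 4.3.3; two-sided, filterByExpr, Benjamini-Hochberg over 321 rows). DESeq2 1.42.0 and limma 3.58.1 served as alternatives. Exact permutation tests used all 462 ways to draw 5 of 11 libraries (smallest p 0.0022) on log2(scaled count + 1). List rows needed a mean scaled count of at least 10 over all 11 libraries. The code was tested on simulated data.

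Members, lists and the naming rule were chosen with earlier results of these data known. The rule named Itgal and Itga1, all adhesion rows, the 3 most abundant rows of each marker list and the 5 rows most like each gene, without predicted genes; Ebf1 and Bcl11b were picked after their values were seen. A further row named with these genes is not reported here.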

Additional observations from a re-analysis of the deposited data

Results flagged for a closer look

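Each measure was checked in each group for a library far from the others, in 40 group checks, of which chance flags about 1 in 20. The checks found 6 such values in libraries C105F/+ 3, wild type 1 and wild type 4. The plasma cell list mean of C105F/+ 3 was 7.71 on the log2 scale against 10.1 or more in the other C105F/+ libraries, and Itgal minus that list was accordingly 5.26 there. In wild type 4 the B cell list mean was 8.66, Itgal minus the B cell list was 3.65 and Itgal minus the lymphocyte reference was 5.71, the first above and the others below the rest of wild type. In wild type 1 the T cell list mean was 4.24, below the other wild type libraries. No library stood apart by this measure in the scaled counts or FPKM of Itgal or Itga1 themselves.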

How the results depend on the processing

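The group differences of Itgal and Itga1 kept their direction in all 7 alternatives and in the 11 fits that left out 1 library (log2 0.96 to 1.27 and 1.12 to 1.55). They lost the threshold with TMM scaling on the rows (0.35 and 0.60) and with the replicate block (1.02 and 1.32, adjusted p = 0.095 and 0.0913). Replicate numbers gave no sign of pairing (r of same-numbered deviations -0.11 to 0.15), and 1 of 5 correlated best with its own number. So few libraries cannot exclude pairing. Log2(FPKM + 1) and the deposited log2 values gave smaller differences for Itga1 (0.48 and 0.68), both past the threshold by limma. Rows called higher and lower (169 and 70) were 13 and 83 with TMM, 193 and 45 with the FPKM depth, whose median log2 fold change was 1.29, 197 and 108 without the filter, 231 and 146 by DESeq2 and 0 and 0 with the replicate block (166 rows at an unadjusted p under 0.05). They ran from 8 to 190 and from 3 to 90 when 1 library was left out. Adhesion rows called (7) were 0 with TMM or the block, and 0 to 8 without 1 library.

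Itgal relative to the lymphocyte reference (-0.76) was 0.16 on log2(FPKM + 1), -0.88 against T cells alone (past the threshold only without adjustment over the 4 lists) and -1.03 to -0.53 without 1 library. Itga1 relative to Itgal was -0.69 on log2(FPKM + 1), exact permutation p = 0.0303. That pseudocount exceeds most Itga1 values; with 0.01, chosen after seeing the data, the values were -0.75 and 0.27. Paired by number, a sign-flip test over 5 pairs cannot reach 0.05. Within wild type, r for Itgal was 0.12, 0.72 and -0.83 against T, plasma and NK cells, and -0.67 to 0.74 without 1 library; for Itga1 it was 0.45 against plasma cells and -0.85 to 0.14. The signs turned without wild type 4. Depth limits Itga1, whose lowest count was 43.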
